A study of Danio rerio with 10 samples.

Results

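Integrin, laminin and collagen genes, with other matrix genes, were followed in the messenger RNA of sorted zebrafish neutrophils. The genes were chosen by symbol and by their counts, as integrin alpha or beta subunits, laminin chains, collagen chains, fibronectins, fibrillins, thrombospondins, tenascin C, EFEMP proteins, SPARC proteins, nidogens and perlecan, with 10 or more counts summed over 5 libraries. Of the 15335 genes listed, 67 matched by symbol and 36 of these reached 10 counts. The other 31 did not, and 12 of them had 0 counts in all 5 libraries. They were thus selected on their summed counts, so the level of these genes is given as a description. Just inside the threshold lay col18a1a with 10 counts in all, col17a1a with 11, and col5a2a and col8a2 with 12 each. Just outside lay thbs4b with 9 counts, and col4a5 and thbs4a with 8 each.

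All libraries came from larvae of the AB background at 3 days post fertilization, from transgenic lines with a GFP reporter, and the cells were isolated by fluorescence-activated cell sorting. In 3 libraries the neutrophils overexpressed the microRNA miR-199, and in 2 they carried the vector control (replicates 1 and 3). The study compared these groups to find targets of miR-199. The promoter that drove the transgene is not given in the sources used here, nor is whether the replicates came from separate sorts, so p-values measure the spread between these libraries, which may be technical.

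Integrins are receptors made of 1 alpha and 1 beta subunit that span the cell membrane, bind matrix proteins or partner cells outside, and connect inside to actin through talin and kindlin. Laminins are trimers of alpha, beta and gamma chains that build basement membranes, while fibrillar collagens give connective tissue its strength. Leukocytes use integrins to adhere to vessel walls and to matrix. The beta 2 integrins are those that leukocytes are best known for. No beta 2 gene is among the genes that matched by symbol, so they are not analysed here.

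The libraries held between 12339928 and 17024134 counts, and 3 counts, taken as the limit that a count of 0 allows, equalled 0.176 to 0.243 CPM (each count times 1000000 over the total of its library). The hairpin gene mir199-2a had 26 and 15 counts in vector replicates 1 and 3, while the miR-199 libraries 1 to 3 had 137, 44 and 53, and its log2 fold change was 2.02 (SE 0.58; edgeR adjusted p 0.0562). The 13 neutrophil markers summed to 84065 to 86442 CPM in vector and 61034 to 70718 CPM in miR-199 libraries. Of the 12 tested, 4 were called lower (lyz, mmp9, lect2l and cebp1), where 10.4% of all tested genes were. Among the uncalled, cpa5, il6r, srgn and csf3r had log2 fold changes of 0.58, 0.49, 0.35 and 0.28. Those of mpx, mmp13a, npsn and ncf1 were -0.87, -1.28, -0.22 and -0.19. Markers of 10 other cell types were far lower. Macrophage markers summed to 17.5 to 20.3 CPM in vector and 23.9 to 56.5 CPM in miR-199 libraries, and mpeg1.1, c1qa, c1qb and c1qc were at 0. Erythroid markers ran from 9.63 to 10.1 and from 14.6 to 38.8 CPM, with hbae3, hbbe2, alas2 and gata1a at 0. Keratinocyte markers ran from 91.2 to 105 and from 71.3 to 117 CPM, and 7 of 15 were at 0, krt5 and epcam among them. Fibroblast markers ran from 4.52 to 5.58 and from 1.93 to 8.98 CPM, with pdgfra and twist2 at 0. Muscle markers ran from 13.4 to 15.3 and from 15.9 to 47.1 CPM, with mylpfa, ckma and myhz2 at 0. Cartilage markers ran from 0.705 to 1.28 and from 1.05 to 2.82 CPM (cnmd at 0), notochord markers from 3.78 to 5.93 and from 2.51 to 11.6 CPM (ngs at 0), and neural markers from 0.675 to 0.881 and from 1.13 to 5.16 CPM (elavl3 at 0). Thrombocyte markers ran from 312 to 342 and from 295 to 503 CPM, and endothelial markers from 952 to 959 and from 1078 to 1542 CPM. Neither list had a gene at 0 in all 5 libraries, but f13a1b held most counts of the former and fli1a and fli1b most of the latter. Counts of the endothelial kdrl were 34 and 0 in vector and 1, 4 and 4 in miR-199 libraries. Those of cdh5 were 4 and 0 against 7, 0 and 0, and those of pecam1 0 and 2 against 1, 5 and 0. In all these other lists, 3 genes were called, where 19.9% of all tested genes were. They were tie1 and erg of 7 tested endothelial markers, as higher, and krt91 of 4 tested keratinocyte markers, as lower. Of the uncalled endothelial markers, tek had a log2 fold change of -0.50. Those of fli1a, fli1b, clec14a and plvapa were 0.05, 0.47, 1.04 and 0.32. In bulk samples of sorted cells, fewer cells of a type and less RNA per cell cannot be told apart. The part of other cells in the results below was not tested.

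Against vector, 3 of the 23 genes that passed the filter on low counts rose in miR-199 neutrophils and 4 fell, by edgeR's quasi-likelihood test at an adjusted p under 0.05 over all 8897 genes tested. The rises were in the integrin subunit itga11a, the elastic fibre gene efemp2b and col4a3bpa, and the falls in the laminin lama1, the collagen col11a2, the integrin subunit itgb1b and itgb1bp1. That is 30.4% of the tested genes of the set, where 19.9% of all tested genes were called, 9.49% as higher and 10.4% as lower. With DESeq2 the shares were 30.4% and 30%, and in the fit over all genes with 10 or more counts 16.7% and 15.2%. Of the 36 genes, 13 reached 10 counts in 1 group alone, among them the called lama1, col11a2 and efemp2b, so no support is drawn from these shares. The median log2 fold change was -0.10 in the set and 0.019 over all genes. The groups did not overlap in CPM for 13 of the 23 genes, 6 higher and 7 lower, where 57.5% of all tested genes did not overlap, 35.2% higher and 22.3% lower. The tested genes of the set held few counts, with a median of 2.0 CPM against 26.1 CPM over all tested genes, and their median SE was 0.70 on the log2 scale against 0.24. With library totals in place of TMM scaling, 62.8% of the calls over all genes were higher, against 47.6%, and itgb1b and itgb1bp1 were not called.

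Leaving out a vector library leaves that group with 1, and hardly any gene in the tables was then called. Without vector replicate 1, edgeR called 0 of 25 genes of the set (6 at an unadjusted p under 0.05, smallest adjusted p 0.0989) and 2 of 9293 genes in all, or 0.0215%. Without vector replicate 3 it called 0 of 26 (6 at an unadjusted p under 0.05, smallest adjusted p 0.13) and 0 of 9359, or 0%, in all (1598 at an unadjusted p under 0.05). The log2 fold changes without vector replicates 1 and 3 were -5.54 and -5.01 for col11a2, 2.55 and 2.25 for col4a3bpa, -0.63 and -0.59 for itgb1b and -0.62 and -0.52 for itgb1bp1, while those of itga11a were 1.90 and 3.13. Without miR-199 replicate 2 it called 3 of 22, namely lama1, col11a2 and col4a3bpa, or 13.6% where 10.6% of all genes were called. Without miR-199 replicate 1 it called 9 of 22, or 40.9% where 23.9% of all genes were called, among them itgb3a, col11a1b and col1a1b but not itgb1b.

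**Figure D1:**
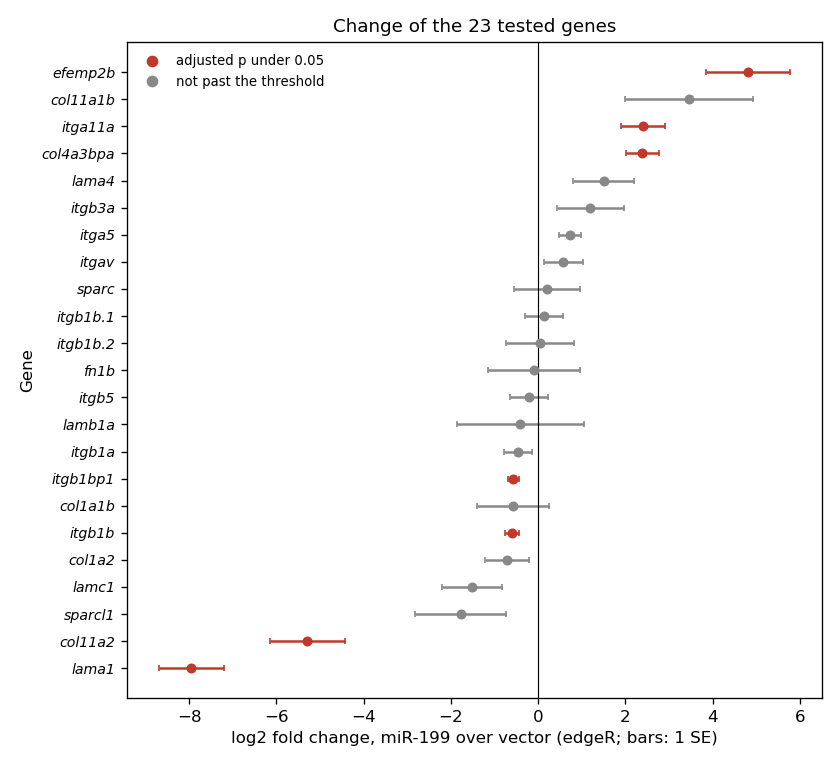
Log2 fold change of each of the 23 tested genes in miR-199 over vector neutrophils (horizontal axis, log2 units), with bars of 1 SE from edgeR; red marks an adjusted p under 0.05. The changes run from -7.95 for lama1 to 4.81 for efemp2b, and 16 of the 23 genes are not past the threshold.

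Among the 4 integrin alpha subunits of the set, itgav was the most abundant in TPM. Its product is the alpha V chain, which binds vitronectin, fibronectin and other ligands with an RGD motif. Its 30 listed exons span, on the minus strand of chromosome 9, 11597500 to 11654996 (GRCz11). Its level per transcript length was 44.7 and 32.4 TPM (counts over listed exon length, scaled to a sum of 1000000 per library) in vector replicates 1 and 3, while miR-199 replicates 1, 2 and 3 had 43.3, 46.5 and 107 TPM. Replicate 3 stood above the other four libraries, which lay between 32.4 and 46.5 TPM, so the groups overlapped. The log2 fold change was 0.58 (SE 0.44; edgeR adjusted p 0.387), and without miR-199 replicate 3 it was 0.00. In every library itgav supplied between 86.5% and 94.6% of the summed TPM of the 4 alpha subunits of the set.

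The alpha subunit gene itga11a rose. In mammals its product pairs with beta 1 as a collagen receptor and is known mainly from fibroblasts. Its position is chromosome 7, 33176288 to 33248767, minus strand (30 listed exons). It had 15 and 29 counts in vector replicates 1 and 3, and 80, 120 and 125 counts in miR-199 replicates 1, 2 and 3. The mean was 1.42 ± 0.761 CPM for vector (SD, n = 2) and 8.25 ± 2.38 CPM for miR-199 neutrophils (SD, n = 3). All 3 miR-199 libraries were above both vector libraries, with a log2 fold change of 2.40 (SE 0.51; edgeR adjusted p 0.0276), or 5.27-fold. Without miR-199 replicate 2 the adjusted p was 0.0705, and without vector replicate 3 the log2 fold change was 3.13. Beside it, the fibroblast markers pdgfra and twist2 were at 0 in all libraries, and pdgfrb had 81 and 56 counts in vector against 21, 66 and 109 in miR-199 libraries. Counts of dcn were 10 and 8 against 3, 10 and 7, and those of postnb 1 and 3 against 4, 0 and 0. The part of fibroblasts in the rise of itga11a was not tested.

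For itga5, whose product forms the classical fibronectin receptor with beta 1, the groups also did not overlap. It had 7.05 and 5.87 CPM in the vector libraries and 9.91, 13.7 and 11.6 CPM in the miR-199 libraries. The log2 fold change of 0.73 (SE 0.26) had an edgeR adjusted p of 0.0951 and passed the threshold under none of 12 alternatives, where the adjusted p ran from 0.0509 to 0.445. The thrombocyte and platelet subunit itga2b had 11 and 10 counts in vector and 0 in all 3 miR-199 libraries. It was below the filter, and in the fit over all genes with 10 or more counts its adjusted p was 0.0545. Of the alternatives run, it was called only where no filter was applied.

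The beta 1 chain, common partner of many alpha subunits, is encoded in the tables by itgb1a on chromosome 24 and by itgb1b, itgb1b.1 and itgb1b.2 on the minus strand of chromosome 2 between 43577293 and 43653328. The last 3 are near neighbours: itgb1b.1 lies within the span of itgb1b, and exons of itgb1b and itgb1b.2 overlap by 118 bases. How reads shared between them were counted is not stated, so their separate values are uncertain. Together the 4 genes held 96.1% and 96.7% of the summed TPM of the 7 beta subunits in vector, while miR-199 replicates 1, 2 and 3 had 97.0%, 87.3% and 91.5%.

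The gene itgb1b, the most abundant of the 7 beta subunit genes of the set, was lower in miR-199 neutrophils. It had 942 and 795 counts in vector replicates 1 and 3, while miR-199 replicates 1, 2 and 3 had 569, 420 and 580. The mean was 54.5 ± 1.19 CPM for vector (SD, n = 2) and 39.1 ± 5.05 CPM for miR-199 neutrophils (SD, n = 3), and the groups did not overlap. The log2 fold change was -0.61 (SE 0.16), or 1.53-fold lower, and the edgeR adjusted p of 0.0481 was close to the threshold. The call was lost in 8 of 12 alternatives, with adjusted p from 0.00881 to 0.32 over all of them. With the counts of the 3 neighbouring symbols summed, a check added after the data were seen, the log2 fold change was -0.40 and the adjusted p 0.113.

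The other beta 1 genes did not pass the test. For itgb1b.1 the vector libraries both held 16.2 CPM and the miR-199 libraries 27.5, 21.2 and 9.44 CPM, on either side of vector, with a log2 fold change of 0.13 (SE 0.43; edgeR adjusted p 0.854). The values of itgb1a were 6.46 and 5.74 CPM in vector against 6.33, 3.97 and 4.26 CPM, with a log2 fold change of -0.46 (SE 0.32) and an edgeR adjusted p of 0.346. The low itgb1b.2 had 17 and 15 counts in vector and 32, 9 and 6 in miR-199 libraries, with a log2 change of 0.04 (SE 0.78; edgeR adjusted p 0.974).

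The beta 3 chain, a partner of alpha V, differed widely among the miR-199 libraries. The gene itgb3a had 2.94 and 1.75 CPM in vector and 1.51, 9.81 and 6.24 CPM in miR-199 replicates 1, 2 and 3. Replicate 1 was below both vector libraries and the other miR-199 libraries were above them. The log2 fold change of 1.19 (SE 0.77) had an edgeR adjusted p of 0.31, and without miR-199 replicate 1 it was 1.66 with an adjusted p of 0.0296. Of the thrombocyte markers beside it, 4 were tested and none was called. Counts of gp1bb were 3 and 3 in vector against 1, 25 and 12, and those of mpl 2 and 3 against 7, 13 and 14. Counts of nfe2 were 17 and 6 against 9, 12 and 14, those of fgb 2 and 3 against 20, 2 and 1, and those of f13a1b 5283 and 5058 against 7276, 3589 and 6342. The marker itgb3b had 1 count in all, and itga2b was at 0 in the miR-199 libraries. Their part in the values of itgb3a was not tested. The beta 5 gene itgb5, listed on an alternate locus of chromosome 9, had 30 and 35 counts in vector and 29, 27 and 22 in miR-199 libraries, with a log2 change of -0.21 (SE 0.44). The hemidesmosome subunit itgb4 had at most 9 counts in any library and was not tested.

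**Figure D2:**
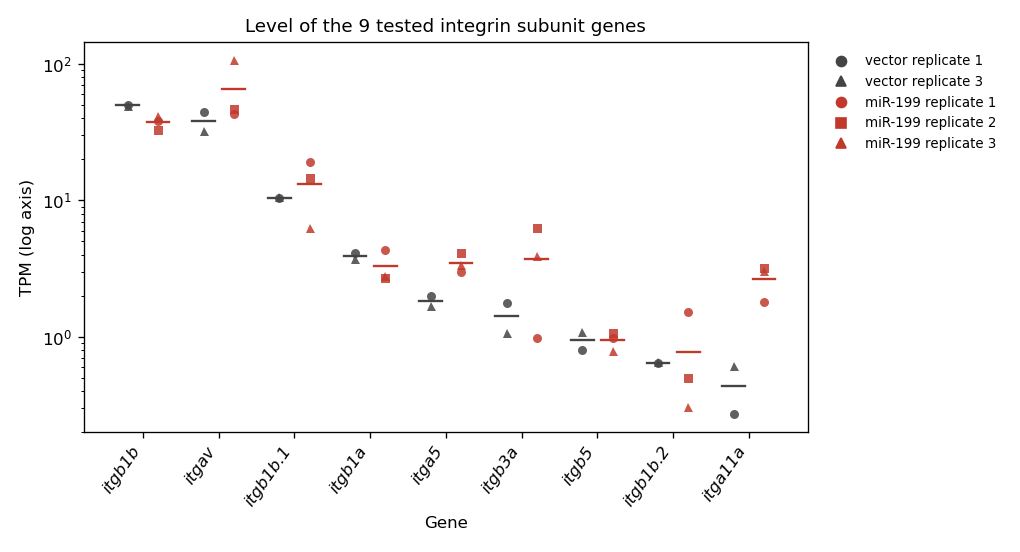
Level of the 9 tested integrin subunit genes in each library, as TPM on a log axis; grey points are vector and red points miR-199 libraries, and bars are group means. The genes itgb1b and itgav lie highest in every library, and itga11a separates the groups, with vector at 0.269 and 0.605 TPM and miR-199 at 1.81, 3.17 and 3.01 TPM.

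The order by mean TPM covers only the tested integrin subunits of the set, which holds no beta 2 gene. In vector neutrophils it ran from itgb1b (50.0 ± 0.691) over itgav (38.5 ± 8.68), itgb1b.1 (10.5 ± 0.104), itgb1a (3.90 ± 0.296), itga5 (1.83 ± 0.221) and itgb3a (1.41 ± 0.493) to itgb5 (0.940 ± 0.201), itgb1b.2 (0.646 ± 0.0114) and itga11a (0.437 ± 0.237), each with SD and n = 2. The ranges of the libraries overlapped between no neighbours from itgb1b down to itga5, but overlapped between itga5 and itgb3a and between itgb3a and itgb5. Below itgb5 they were again apart. In miR-199 neutrophils itga11a stood at 2.66 ± 0.746 TPM (SD, n = 3), above itgb5 at 0.938 ± 0.138 TPM (SD, n = 3), with no overlap between these genes. The ranks of the tested genes were the same with CPM per kilobase on TMM library sizes.

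Of 5 laminin chain genes, 4 were tested and 1 was called, or 25% beside the 19.9% of all tested genes. The gene lama1 encodes the laminin alpha 1 chain of embryonic basement membranes and sits on chromosome 24, 41690545 to 41784171, plus strand (63 listed exons). It had 142 and 105 counts in vector replicates 1 and 3, while miR-199 replicates 1, 2 and 3 had 0, 1 and 0. The gene thus reached 10 counts only through vector, so its change is given as a description. The groups lay far apart, with a single count in all miR-199 libraries. On pooled counts over library totals, vector was 310-fold higher, with an exact 95% interval of 55.2 to 12307 that covers counting error only. The edgeR adjusted p was 0.00645, with a fitted log2 fold change of -7.95 (-9.91 without miR-199 replicate 2) that depends on the prior count and is no bound. The adjusted p was 0.0989 without vector replicate 1 and 0.13 without vector replicate 3, but the miR-199 libraries held at most 1 count against either vector library.

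The other laminin chain genes held few counts and were not called. The gamma 1 gene lamc1, whose chain is part of most laminin trimers, had 39 and 14 counts in vector and 5, 11 and 8 in miR-199 libraries, lower in CPM in all 3 but with an edgeR adjusted p of 0.162. The alpha 4 gene lama4, known from vessel basement membranes, had 7 and 10 counts in vector and 28, 10 and 31 in miR-199 libraries. Its log2 fold change was 1.5 (SE 0.70; edgeR adjusted p 0.176). In vector, lama4 held 0.411 and 0.675 CPM, so it passed the filter only through the miR-199 libraries. Its positive value did not pass the test, and no contrast with lama1 is drawn. The beta chain gene lamb1a had 20 and 3 counts in vector and 22, 0 and 2 in miR-199 libraries, so that replicate 1 of each group held most of its counts.

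Of 6 fibrillar collagen genes, 4 were tested, and only col11a2 was called, as lower, or 25% beside the 19.9% of all tested genes. It encodes a chain of type XI collagen, a fibrillar collagen known from cartilage, with its gene on chromosome 19, 7179742 to 7225228, minus strand. It had 67 and 80 counts in vector replicates 1 and 3, while miR-199 replicates 1, 2 and 3 had 4, 1 and 0. Because it reached 10 counts only through vector, its change is given as a description. The mean was 4.67 ± 1.04 CPM for vector (SD, n = 2) and 0.119 ± 0.142 CPM for miR-199 neutrophils (SD, n = 3), with no overlap. Its log2 fold change was -5.29 (SE 0.86; edgeR adjusted p 0.0143), and it was -6.70 without miR-199 replicate 1. Cartilage markers were low and differed in direction beside it, with cnmd at 0 and sox9a at 1 count in all. Counts of matn1 were 5 and 8 in vector and 14, 6 and 17 in miR-199 libraries, those of hapln1a 1 and 2 against 4, 6 and 11, and those of ucmab 6 and 9 against 1, 0 and 9. Their part in the fall of col11a2 was not tested.

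The type I collagen genes, the main fibrillar collagens of connective tissue, held few counts. For col1a1b these were 33 and 32 in vector and 47, 9 and 7 in miR-199 replicates 1, 2 and 3. Replicate 1 lay above vector and the other miR-199 libraries below it, and col1a1b was called as lower without replicate 1. For col1a2 the counts were 25 and 29 against 21, 12 and 13, a log2 fold change of -0.72 (SE 0.50; edgeR adjusted p 0.343). The type XI chain gene col11a1b had 2 and 0 counts in vector and 2, 17 and 13 in miR-199 libraries, higher in CPM in all 3 and by little in replicate 1. Its pooled ratio was 12.7 in favour of miR-199, with an exact 95% interval of 3.25 to 110. That interval covers counting error only and not the spread between replicates, and the edgeR adjusted p was 0.143. This gene, too, reached 10 counts only through the miR-199 libraries. The type V genes col5a2a and col5a3b were below the filter, and col5a3b had 5 and 2 counts in vector and 0, 3 and 5 in miR-199 libraries. Of the 6 collagen genes outside the fibrillar class, of types VIII, IX, XVII, XVIII and XXVIII, none passed the filter. Their summed level was 0.675 to 0.881 CPM in vector and 1.17 to 1.94 CPM in miR-199 libraries.

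Among the matrix glycoproteins, 1 of 4 tested genes was called, or 25% beside the 19.9% of all tested genes. This gene, efemp2b, rose. It encodes a fibulin, also named fibulin 4, which in mammals is needed to assemble elastic fibres and to bring lysyl oxidase to them. Its position is chromosome 21, 25589619 to 25601588, minus strand (10 listed exons). It had 7 and 0 counts in vector replicates 1 and 3, and 143, 65 and 69 in miR-199 replicates 1, 2 and 3. Because it reached 10 counts only through the miR-199 libraries, its change is given as a description. All 3 miR-199 libraries held at least 5.25 CPM, where vector held at most 0.411 CPM, and the log2 fold change was 4.81 (SE 0.97; edgeR adjusted p 0.0236). Because 1 vector library was at 0, its size depended on the other, and it was 3.92 without vector replicate 3 and 9.50 without vector replicate 1. The value of 9.50 sets the miR-199 libraries against a vector library at 0 counts, so it depends on the prior count and is no bound. Without miR-199 replicate 2 the adjusted p was 0.0572.

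Fibronectin, the main ligand of alpha 5 beta 1, held few counts in these libraries. The gene fn1a had 4 and 4 counts in vector and 14, 4 and 5 in miR-199 libraries, and fn1b had 14 and 3 against 10, 10 and 1. The collagen-binding glycoprotein gene sparc had 13 and 4 counts against 7, 7 and 12, and sparcl1 had 14 and 11 against 7, 0 and 3. None of fn1b, sparc and sparcl1 was called. Summed per transcript length, the 23 matrix genes held 6.75 and 5.34 TPM in vector and 12.8, 7.77 and 7.60 TPM in miR-199 libraries. The gene efemp2b decided the direction of that sum, since the other 22 held 6.43 and 5.34 TPM in vector and 4.66, 3.44 and 3.41 TPM in miR-199 libraries. The lower sum of these 22 rested in turn on lama1 and col11a2, which reached 10 counts only through vector. In TPM, lama1 held 1.33 and 1.14 in vector and 0, 0.0137 and 0 in miR-199 libraries. For col11a2 the values were 0.802 and 1.11 against 0.0603, 0.0176 and 0. In CPM the 23 genes summed to 24.6 and 21.1 in vector and to 23.3, 15.2 and 14.2 in miR-199 libraries. The 11 integrin subunits held 116 and 102 TPM in vector and 113, 112 and 169 TPM in miR-199 libraries.

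**Figure D3:**
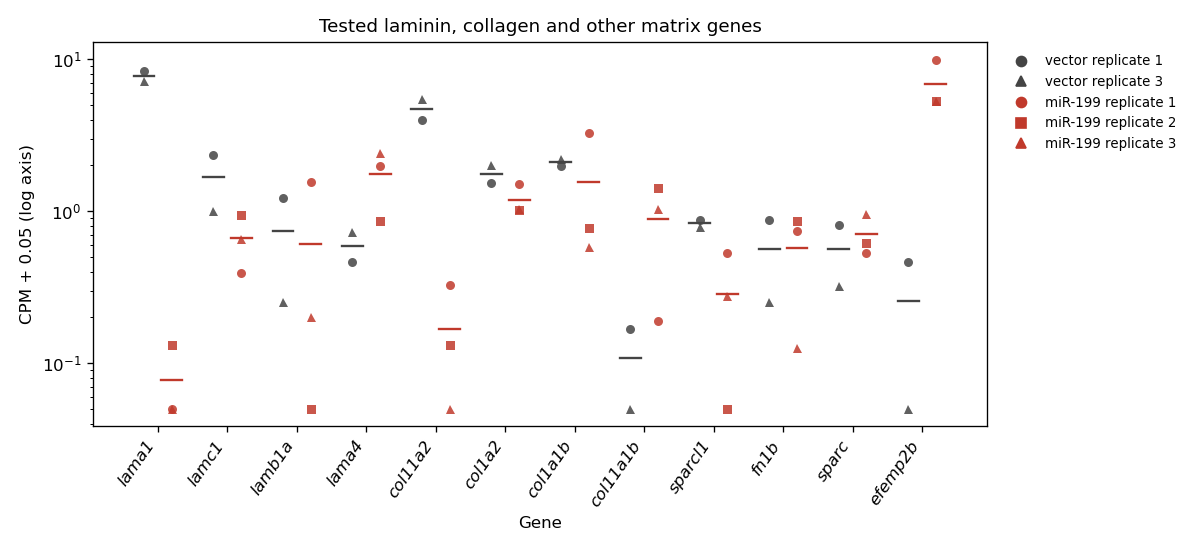
The 12 tested laminin, collagen and glycoprotein genes in each library, as CPM with 0.05 added on a log axis; grey points are vector and red points miR-199 libraries, and bars are group means. The genes lama1 and col11a2 are high in both vector libraries and near 0 in miR-199 libraries, while efemp2b shows the opposite order.

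The 13 genes below the filter had between 10 and 31 counts in all. In the edgeR fit over all genes with 10 or more counts, where 15.2% of genes were called, 0 of the 13 were called, 3 had an unadjusted p under 0.05, and the smallest adjusted p was 0.0545. Those 3 were itga2b, col28a1b and col5a2a. The counts of col28a1b were 0 and 0 in vector and 3, 11 and 4 in miR-199 libraries. The counts of col5a2a were 9 and 3 in vector and 0 in all miR-199 libraries. Each of the 3 reached 10 counts only through the group where it was high, so these counts are a description.

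A pair of genes matched only by symbol. The gene itgb1bp1 encodes a cytoplasmic protein that binds the beta 1 tail and is known as an inhibitor of integrin activation, while col4a3bpa, listed by RefSeq as cert1a, encodes a ceramide transfer protein and no collagen. They held between 16.2% and 35.0% of all counts of the 36 genes. For itgb1bp1 the vector libraries held 106 and 108 CPM and the miR-199 libraries 84.1, 81.9 and 71.0 CPM. All 3 were below vector, with a log2 fold change of -0.57 (SE 0.13) and an edgeR adjusted p of 0.0326. Without miR-199 replicate 2 this p was 0.0639. For col4a3bpa the counts were 18 and 12 in vector and 78, 75 and 63 in miR-199 libraries, with a log2 change of 2.39 (SE 0.38; edgeR adjusted p 0.0136). Without these genes, 2 of 21 integrin and matrix genes rose and 3 fell, or 23.8% beside the 19.9% of all tested genes. Among these calls, lama1, col11a2 and efemp2b reached 10 counts in 1 group alone, so no support is drawn from this share.

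**Figure D4:**
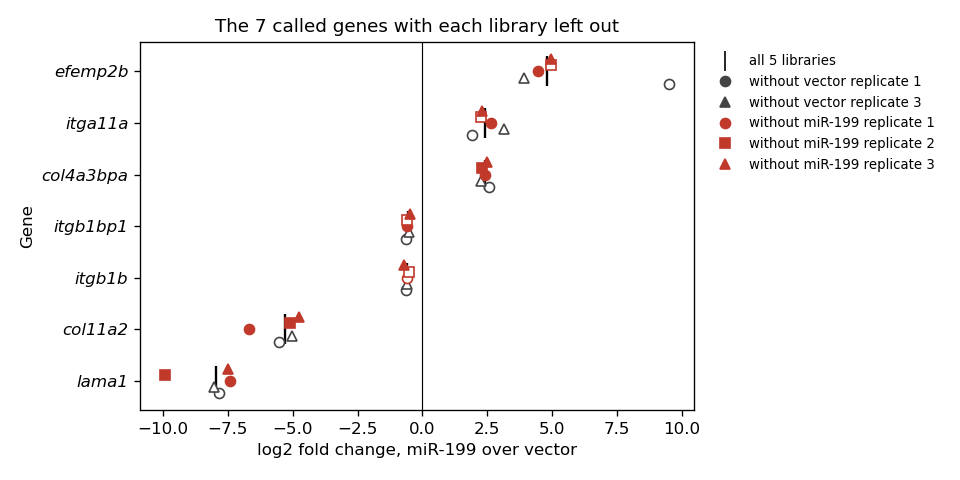
Log2 fold change (horizontal axis) of the 7 called genes with each library left out in turn; black ticks are the values with all 5 libraries, filled symbols have an adjusted p under 0.05 and open symbols do not. No direction changes, and all symbols for a missing vector library are open. For lama1, col11a2 and efemp2b, which reached 10 counts in 1 group alone, the direction could hardly change.

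Genes that couple integrins to the cytoskeleton were called at about the share of all genes. Of 62 symbols of activators and adapters, 42 were among the genes listed and 28 were tested. Of the 28, 2 rose and 4 fell, or 21.4%, where 19.9% of all tested genes were called. Their median log2 fold change was -0.09. The tetraspanin gene cd9a, whose product associates with integrins in the membrane, had 8.46 and 7.69 CPM in vector and 35.9, 30.1 and 27.4 CPM in miR-199 libraries. Its log2 change was 1.81 (SE 0.21, edgeR adjusted p 0.00723). The gene cd9b went the other way, with 7.11 and 4.93 CPM in vector and 1.86, 2.67 and 3.27 CPM in miR-199 libraries. Its log2 change of -1.33 (SE 0.38) did not pass the threshold (edgeR adjusted p 0.0565). The small GTPase gene rap1b, whose product acts in integrin activation, rose by 0.87 (SE 0.15; edgeR adjusted p 0.0167), from 376 and 354 CPM to 725, 827 and 640 CPM. The kinase gene fynb fell by 3.90 in log2 units (SE 0.68, edgeR adjusted p 0.017), with 95 and 82 counts in vector and 7, 8 and 1 in miR-199 libraries. In CPM it held 5.58 and 5.53 against 0.482, 0.648 and 0.0761. It thus passed the filter on low counts only through vector, and its fall is given as a description. The focal adhesion kinase gene ptk2ab fell by 1.70 (SE 0.39), the parvin gene parvg by 0.54 (SE 0.11) and the zyxin gene zyx by 0.59 (SE 0.14), with edgeR adjusted p of 0.0334, 0.0264 and 0.0364. The talin gene tln1 differed by -0.20 (SE 0.16) and the kindlin gene fermt3b by -0.62 (SE 0.19), with edgeR adjusted p of 0.408 and 0.0695. Without vector replicate 1 or 3, edgeR called 0 of these genes, with 7 and 6 at an unadjusted p under 0.05, and without miR-199 replicate 2 there were 2 higher and 1 lower.

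Of 50 symbols of genes for folding, cross-linking and processing of matrix proteins, 32 were among the genes listed and 14 were tested. Of the 14, 3 rose and 1 fell, or 28.6% beside the 19.9% of all tested genes, with a median log2 fold change of 0.39. Limma-voom called 1 as higher and 1 as lower, library totals 3 and 0, and the fit without miR-199 replicate 3 called 5 and 1. The collagen lysyl hydroxylase gene plod1a had 16 and 20 counts in vector and 201, 116 and 58 in miR-199 libraries, with a log2 change of 2.87 (SE 0.59; edgeR adjusted p 0.0246). The procollagen C-proteinase gene bmp1a had 9 and 14 counts against 49, 157 and 193, a log2 fold change of 3.66 (SE 0.78, edgeR adjusted p 0.0274). In CPM it held 0.529 and 0.945 in vector. It thus passed the filter only through the miR-199 libraries, and its rise is given as a description. The collagen chaperone gene serpinh1a rose by 1.06 (SE 0.25; edgeR adjusted p 0.0351), from 105 and 73 counts to 212, 137 and 162. In contrast, ppib, which encodes a prolyl isomerase of the endoplasmic reticulum, fell by 0.56 in log2 units (SE 0.12; edgeR adjusted p 0.0276), from 186 CPM in both vector libraries to 149, 128 and 139 CPM. The lists of both paragraphs were chosen with earlier results of these data known. Without vector replicate 1, vector replicate 3 or miR-199 replicate 2, edgeR called 0 genes of this second list, with 4, 4 and 6 at an unadjusted p under 0.05.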

How the data were processed

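Messenger RNA of 3 miR-199 and 2 vector neutrophil libraries was used; the small RNA libraries hold none of these genes, and vector replicate 2 was not used here. The authors deposited raw counts of reads for each gene symbol, without normalization. The submitters' processing notes name STAR 2.5, featureCounts, Subread 1.5.1 and the build GRCz11. Per the labels, library construction used the SMART-Seq v4 kit. Strand use and the counting of reads with several placements are not given in the sources used here.

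Groups were compared with edgeR 4.0.16 in R 4.3.3 (glmQLFit and glmQLFTest, two-sided, TMM scaling, filterByExpr by group), with Benjamini-Hochberg adjustment over all 8897 genes tested and a threshold of 0.05. The SE of a log2 fold change is its size divided by the square root of F. CPM used library totals, and TPM used the listed exon lengths. The script was tested on simulated data. Alternatives used median-of-ratios scaling, library totals, weaker filters, DESeq2 1.42.0, limma 3.58.1 (voom), a replicate block and each library left out.

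No pair of replicates agreed within sampling noise (chi-square per degree of freedom 14.5 to 114). Intervals and limits cover counting error only. Genes were named by rule: every tested integrin subunit, every called gene, the 5 highest by mean TPM in either group, and up to 4 called genes per direction of the added lists; other genes were chosen after their values were seen. The genes, lists and alternatives were chosen with earlier results of these data known.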

Additional observations from a re-analysis of the deposited data

How the results depend on the processing

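Over the alternatives, 162 of 169 values of 14 named genes kept their sign, 130 kept both sign and side of the threshold, 31 lost the call and 1 gained it. The signs of lama1, col11a2 and efemp2b among them could hardly change, since each reached 10 counts in 1 group alone. No support is drawn from these. The 7 that changed sign were uncalled values of itgb1b.1, itgb1b.2 and itgb5. With the replicate block, itgb1b.1 was at -0.13 and itgb1b.2 at -0.04, and with limma-voom itgb1b.2 was at -0.22. With each library left out, the log2 fold change ran from -0.18 to 0.46 for itgb1b.1, from -0.86 to 0.41 for itgb1b.2 and from -0.45 to 0.05 for itgb5. Library totals shifted the median of all genes by 0.13 on the log2 scale, left 2 genes of the set called lower and put the set's median at 0.017. DESeq2 called 2673 genes in all, 1381 of them higher, and the same 7 genes of the set. Limma-voom called the same 7 and put the set's median at -0.218. With the replicate block, 38 genes rose and 72 fell, 110 in all, and 0 of the set were called as higher, 0 as lower and 0 in all (6 at an unadjusted p under 0.05). That fit leaves 1 residual degree of freedom. The numbers 1 and 3 pair no samples by the labels, and the deviations of same-numbered libraries correlated at -0.223 and -0.176. With each library left out, calls over all genes ran from 0 to 2195 (0 to 1083 higher, 0 to 1112 lower), calls in the set from 0 to 9 (0 to 5 higher, 0 to 4 lower) and the set's median from -0.277 to 0.788, which was reached without vector replicate 1. A lone vector library is there assumed to vary like the miR-199 libraries. The cause was not tested. Median-of-ratios scaling called the same 7 genes, and without a filter 6 of them with itga2b. The 13 genes below the filter, 11 matrix genes and 2 integrin subunits, had at most 31 counts in all.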
